A study of Homo sapiens with 6 samples.

Results

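The actin and tubulin cytoskeleton was examined as a set of 52 genes taken by symbol from a fixed list, all of them found among the 16617 genes that the authors deposited. Actin, actin-binding and actomyosin genes made up 39 of the members, and tubulins with 2 microtubule regulators made up 13. The cells were T3M4, an established human pancreatic ductal adenocarcinoma line, as 3 libraries with a control guide RNA (sgControl, which the table calls WT) and 3 with a guide RNA against METTL13, a methyltransferase of the elongation factor eEF1A (sgMETTL13, called METTL13 knockdown). Both groups were grown alike in DMEM with serum, and the labels do not say whether a group is 1 clone or a pool, nor whether its 3 replicates came from separate cultures, so that a p-value may cover technical spread alone. The table holds 1 average per group, so no value of a single library is given here.

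Actin monomers assemble into filaments that give the cell cortex, lamellipodia and stress fibres their shape and force. The Arp2/3 complex starts branched filaments, cofilin severs them, thymosins and profilin hold the monomer pool, capping proteins stop growth at filament ends, and myosin II, tropomyosins, crosslinkers and adhesion adaptors turn filaments into contractile bundles anchored at the membrane. Microtubules are built from dimers of alpha- and beta-tubulin, are nucleated by gamma-tubulin and are destabilised by stathmin. In carcinoma cells these systems are known for their part in migration and division. Many actin genes are transcribed by serum response factor (SRF) with its cofactors of the MRTF family, which bind actin monomers, through a DNA element called the CArG box.

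In the RefSeq promoter windows (GRCh38.p14, from 250 bases before to 50 bases after each transcription start) 49 members had an entry, and ACTB, ARPC1B and MYL9 had none. A CArG box, searched on both strands, was in the windows of 5 of 36 actin genes and of 0 of 13 tubulin genes, or in 5 of 62 actin starts (8.06%) and 0 of 21 tubulin starts, against 1.29% of 35116 starts of all genes. The 5 stretches below lie upstream of the start, read 5′ to 3′ on the gene's strand, with the CArG box in capitals, and are shown because the share of actin starts with this element is above that of all starts.
ACTG1 (chr17:81512859-81512918, minus strand): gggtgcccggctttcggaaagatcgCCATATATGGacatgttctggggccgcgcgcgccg
TPM4 (chr19:16067340-16067399, plus strand): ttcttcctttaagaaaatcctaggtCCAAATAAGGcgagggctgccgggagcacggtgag
CNN2 (chr19:1026494-1026553, plus strand): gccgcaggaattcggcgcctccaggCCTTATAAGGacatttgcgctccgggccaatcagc
ACTN1 (chr14:68977703-68977762, minus strand): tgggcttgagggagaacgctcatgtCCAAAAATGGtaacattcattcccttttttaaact
FLNA (chrX:154374694-154374753, minus strand): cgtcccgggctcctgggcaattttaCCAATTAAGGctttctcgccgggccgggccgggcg

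The motif TGACTCA, which AP-1 is known to bind, was searched on both strands and was in the windows of CAPG, TAGLN2, EZR and TUBB3, at 4 of 62 actin starts (6.45%) and 1 of 21 tubulin starts (4.76%), against 4.95% of all starts. The share of actin starts is near that of all starts. A stretch of each of the 4 genes is shown, with the motif in capitals (in TUBB3 it lies on the other strand), so that the called CAPG and TAGLN2 stand beside EZR and TUBB3, which were not called. CAPG lost its call after other processing, as given with its values.
CAPG (chr2:85414044-85414100, minus strand): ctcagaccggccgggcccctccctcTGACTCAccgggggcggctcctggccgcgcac
TAGLN2 (chr1:159924613-159924669, minus strand): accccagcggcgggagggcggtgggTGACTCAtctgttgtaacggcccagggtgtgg
EZR (chr6:158818260-158818316, minus strand): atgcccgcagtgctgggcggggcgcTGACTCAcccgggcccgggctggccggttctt
TUBB3 (chr16:89921879-89921924, plus strand): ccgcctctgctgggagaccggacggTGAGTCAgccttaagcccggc
The motif CCAAT, on either strand, was at 12 of 21 tubulin starts (57.1%) and 19 of 62 actin starts (30.6%), against 34.6% of all starts. The motif TATAAA was at 1 of 21 tubulin starts (4.76%) and 2 of 62 actin starts (3.23%), against 11.5% of all starts. A match describes the letters in the window and is no measured binding.

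METTL13 transcript was at an average of 39.9 TPM (a level scaled to transcript length and library) in sgControl and 5.63 TPM in sgMETTL13 per the authors' deposited table. The average estimated reads of all genes per the authors' deposited table had a total of 15240866 in sgControl and of 15247500 in sgMETTL13. The epithelial genes KRT19 (2107 and 2078 TPM) and CDH1 (128 and 122 TPM) were expressed in both groups per the authors' deposited table (0 of 6 epithelial markers passed the test, and 0 had an unadjusted p under 0.05). In such bulk RNA, fewer cells of a type and less RNA per cell cannot be told apart. Of the 10 fibroblast, immune and endothelial markers in the table CD68 and COL1A1 reached 40.9 and 13.99 TPM in sgControl per the authors' deposited table, and the others lay below 3 TPM. CD68 had a log2 fold change of 0.18 per the authors' deposited table, with an unadjusted p of 0.048 and an adjusted p of 0.398, and the other 9 had an unadjusted p above 0.05.

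The cytoskeleton genes were abundant and changed little. Per the authors' deposited table they summed to 39119 TPM in sgControl (3.91% of all TPM) and 39874 TPM in sgMETTL13 (3.99%). Of the 52 members 6 rose and none fell per the authors' deposited table, where a call is an adjusted p below the threshold of 0.05. That is 11.5% of them, against 3.8% of all genes called, 2.73% higher and 1.08% lower. Members are well covered by reads, and 48 of them are abundant genes, here those with 205 mean reads or more, which is the median of the table. Among abundant genes 7.04% were called, 5.21% higher and 1.83% lower, and among the abundant members 12.5% were higher. These shares are not matched for depth. The median of mean reads was 5245 over the 52 members and 743 over abundant genes. The 6 genes were thymosin TMSB10, cofilin CFL1, the capping protein CAPG, the transgelin TAGLN2, the zyxin gene ZYX and the alpha-tubulin TUBA4A. Their rises were between 1.17-fold and 1.26-fold. After removal of a trend of fold change in transcript GC content and length (below: trend removal) 2 of the 52 members were called higher and 0 lower. These were TMSB10 and TAGLN2, both among the 6. Against this stand 1.65% of all genes higher and 1.03% lower, and 255 higher and 141 lower of 8309 abundant genes.

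The median log2 fold change of the 52 members was 0.07 (quartiles 0.02 and 0.15) per the authors' deposited table, beside 0.01 (quartiles -0.08 and 0.10) over abundant genes. By arm the median was 0.05 for actin and 0.08 for tubulin members per the authors' deposited table. On the log2 ratio of average TPM the medians were -0.02 for actin, 0.003 for tubulin and -0.06 for the same background genes, so that the sign of the actin median depends on the scale. Calls on that scale, with the implied standard error, were 3 higher (TMSB10, TAGLN2 and TUBA4A) and 1 lower (VCL) among the members, against 5.14% of all genes higher and 8.47% lower. The deposited log2 fold change exceeds the log2 ratio of average TPM by a median of 0.073 over these genes. Above 0 were 40 of 52 members (76.9%) on the deposited scale, against 50.2% of all and 53.3% of abundant genes, and 26 of 52 on the TPM scale, against 31.9% of abundant genes.

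**Figure D1:**
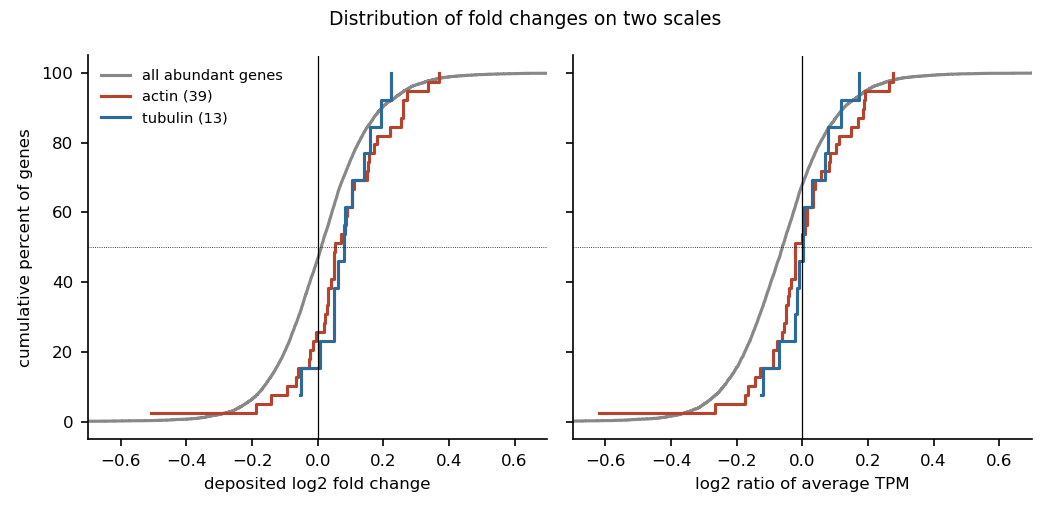
Cumulative percent of genes (y axis) by the deposited log2 fold change (left) and the log2 ratio of average TPM (right), for 39 actin members, 13 tubulin members and all abundant genes. Both arms lie to the right of the grey line in its middle on either scale, with medians of 0.05 and 0.08 against 0.01 on the left and -0.02 and 0.003 against -0.06 on the right.

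The summed levels of both arms changed by a few percent. Summed TPM of the actin members went from 32585 to 33214, or 1.02 times, and that of the tubulin members from 6534 to 6660, or 1.02 times, per the authors' deposited table. The ratio of actin to tubulin TPM was 4.99 in both groups. Summed average reads, by contrast, changed 1.01 times for actin and 1.03 times for tubulin members, and without the 2 most abundant members of each arm summed TPM changed 1.05 and 1.03 times. None of these ratios has an error, and their difference was not tested. Calls were 5 of 39 actin members (12.8%) and 1 of 13 tubulin members (7.69%), against 7.04% of abundant genes called in either direction and 5.21% higher, and the difference between the arms was not tested.

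**Figure D2:**
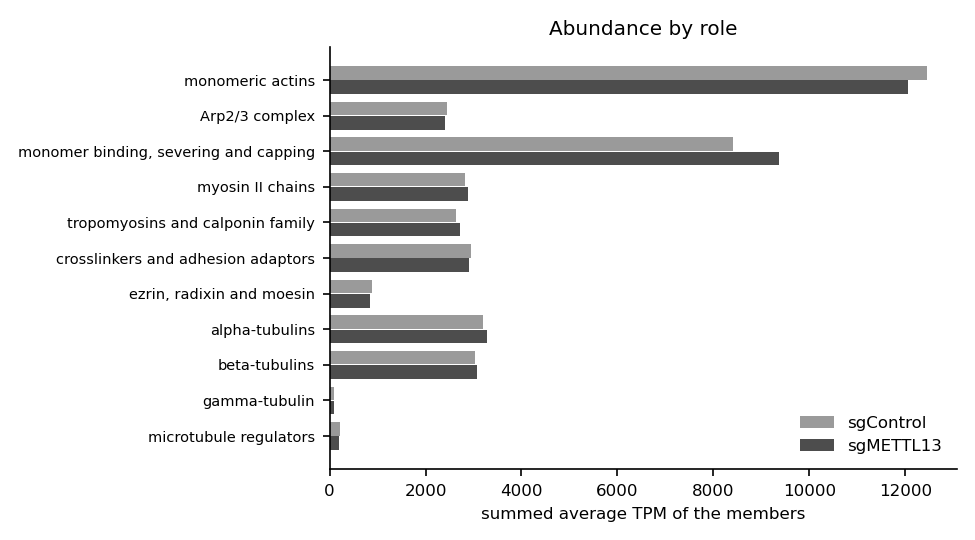
Summed average TPM (x axis) of the members of each role in sgControl (light bars) and sgMETTL13 (dark bars), with no error because each group is 1 deposited average. Monomer binding, severing and capping genes went from 8400 to 9377 TPM, while the monomeric actins went from 12455 to 12056 TPM.

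The monomeric actins did not pass the test. ACTB, the cytoplasmic beta-actin gene and the eighth most abundant transcript of sgControl, averaged 7561 TPM in sgControl and 7344 TPM in sgMETTL13 per the authors' deposited table. Its log2 fold change was 0.03 per the authors' deposited table and had an implied 95% interval from -0.06 to 0.13 (the interval follows from the deposited fold change and p-value under a normal test). ACTG1, the gamma-actin gene, averaged 4894 and 4712 TPM with a log2 fold change of 0.02 per the authors' deposited table (interval -0.07 to 0.11). Both intervals lie inside a change of 1.5-fold in either direction. On the log2 ratio of average TPM both genes lay below 0, at -0.04 and -0.05, beside a median of -0.06 over abundant genes. ACTB made up 60.7% of the TPM of the pair in sgControl and 60.9% in sgMETTL13. Both read averages are fractions that no sum of whole reads over 3 libraries gives, as when a read is split between similar genes, and 4.01% of the 50-base words of the longest coding ACTB transcript also occur in other genes of the table.

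No Arp2/3 subunit passed the test. Its 8 members had log2 fold changes between -0.07 and 0.15 with a median of 0.06 per the authors' deposited table, and intervals that reached from -0.19 to 0.27 over all subunits. At an unadjusted p under 0.05 there were 2 of the 8 higher and none lower, against 13.7% of abundant genes higher and 7.27% lower. The subunits differ in level, from ACTR2 at 63.6 TPM to ARPC2 at 758 TPM in sgControl per the authors' deposited table. The ratio of the highest to the lowest subunit was 11.9 in sgControl and 11.2 in sgMETTL13. ARPC1B (557 and 589 TPM) and ARPC4 (143 and 149 TPM) had the highest fold changes per the authors' deposited table, 0.15 each, with adjusted p of 0.125 and 0.218. ARPC4 shares 19.4% of its 50-base words with the readthrough gene ARPC4-TTLL3, so its reads are less certain. Core actin-related proteins ACTR2 and ACTR3 had log2 fold changes of 0.02 and 0.09 per the authors' deposited table.

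Genes that hold the monomer pool or sever and cap filaments held 3 of the 6 calls. Of 8 such members, all abundant genes, 3 rose (37.5%, against 5.21% of abundant genes), none fell and 5 did not pass, with a median log2 fold change of 0.20 per the authors' deposited table. After trend removal 1 of the 8 was called, against 255 of 8309 abundant genes and 1.65% of all genes higher. TMSB10, the gene of thymosin beta-10, a monomer-sequestering peptide, averaged 2735 TPM and 8510 reads in sgControl and 3286 TPM and 10356 reads in sgMETTL13 per the authors' deposited table. That is the largest called rise among the members, a log2 fold change of 0.34 with an adjusted p of 3.81e-05 per the authors' deposited table (implied standard error 0.065, interval 0.21 to 0.46). TMSB10 (Entrez gene 9168) spans 84905625 to 84906675 of chromosome 2, plus strand (GRCh38, GENCODE 29), and its longest coding transcript of 496 bases is the shortest among the members. Its call held after trend removal, at 0.22 with an adjusted p of 0.036.

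CFL1, the gene of the severing protein cofilin, averaged 2646 TPM in sgControl and 2930 TPM in sgMETTL13 per the authors' deposited table, and 24251 and 27289 reads. Its log2 fold change was 0.22 with an adjusted p of 0.0029 per the authors' deposited table (implied standard error 0.055). CFL1 (Entrez gene 1072) lies on the minus strand of chromosome 11 from 65823022 to 65862026. CAPG (Entrez gene 822), the gelsolin-family capping protein on the minus strand of chromosome 2 (85394748 to 85418432), averaged 152 and 174 TPM and 1413 and 1647 reads per the authors' deposited table, a log2 fold change of 0.27 with an adjusted p of 0.013 (implied standard error 0.076). After trend removal the values were 0.14 for CFL1 (adjusted p = 0.226) and 0.16 for CAPG (adjusted p = 0.381), and both calls were lost. On the log2 ratio of average TPM both calls were also lost, at 0.15 (adjusted p = 0.053) and 0.19 (adjusted p = 0.077). That ratio was not centred, and its median over abundant genes was -0.06, so the loss is no separate check of these genes.

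The other 5 members of this role did not pass the test. TMSB4X, the second thymosin, averaged 1023 and 1104 TPM with a log2 fold change of 0.18 and an adjusted p of 0.057 per the authors' deposited table, the first member outside the threshold. ZYX, at 0.037 per the authors' deposited table, was the last inside it. The severing and capping gene GSN had the highest log2 fold change of any member, 0.37, at 11.0 and 13.3 TPM with an adjusted p of 0.087 per the authors' deposited table (interval 0.12 to 0.62). Profilin PFN1 was at 1441 and 1475 TPM and 0.11 (adjusted p = 0.339) per the authors' deposited table. The heterodimeric capping protein genes CAPZA1 and CAPZB were at -0.02 and 0.11 per the authors' deposited table. Relative to the monomeric actins, cofilin TPM went from 0.212 to 0.243 per actin TPM, the thymosins together from 0.302 to 0.364 and profilin from 0.116 to 0.122. These ratios have no error, because they rest on group averages. Within the thymosins TMSB10 made up 72.8% of TPM in sgControl and 74.8% in sgMETTL13.

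**Figure D3:**
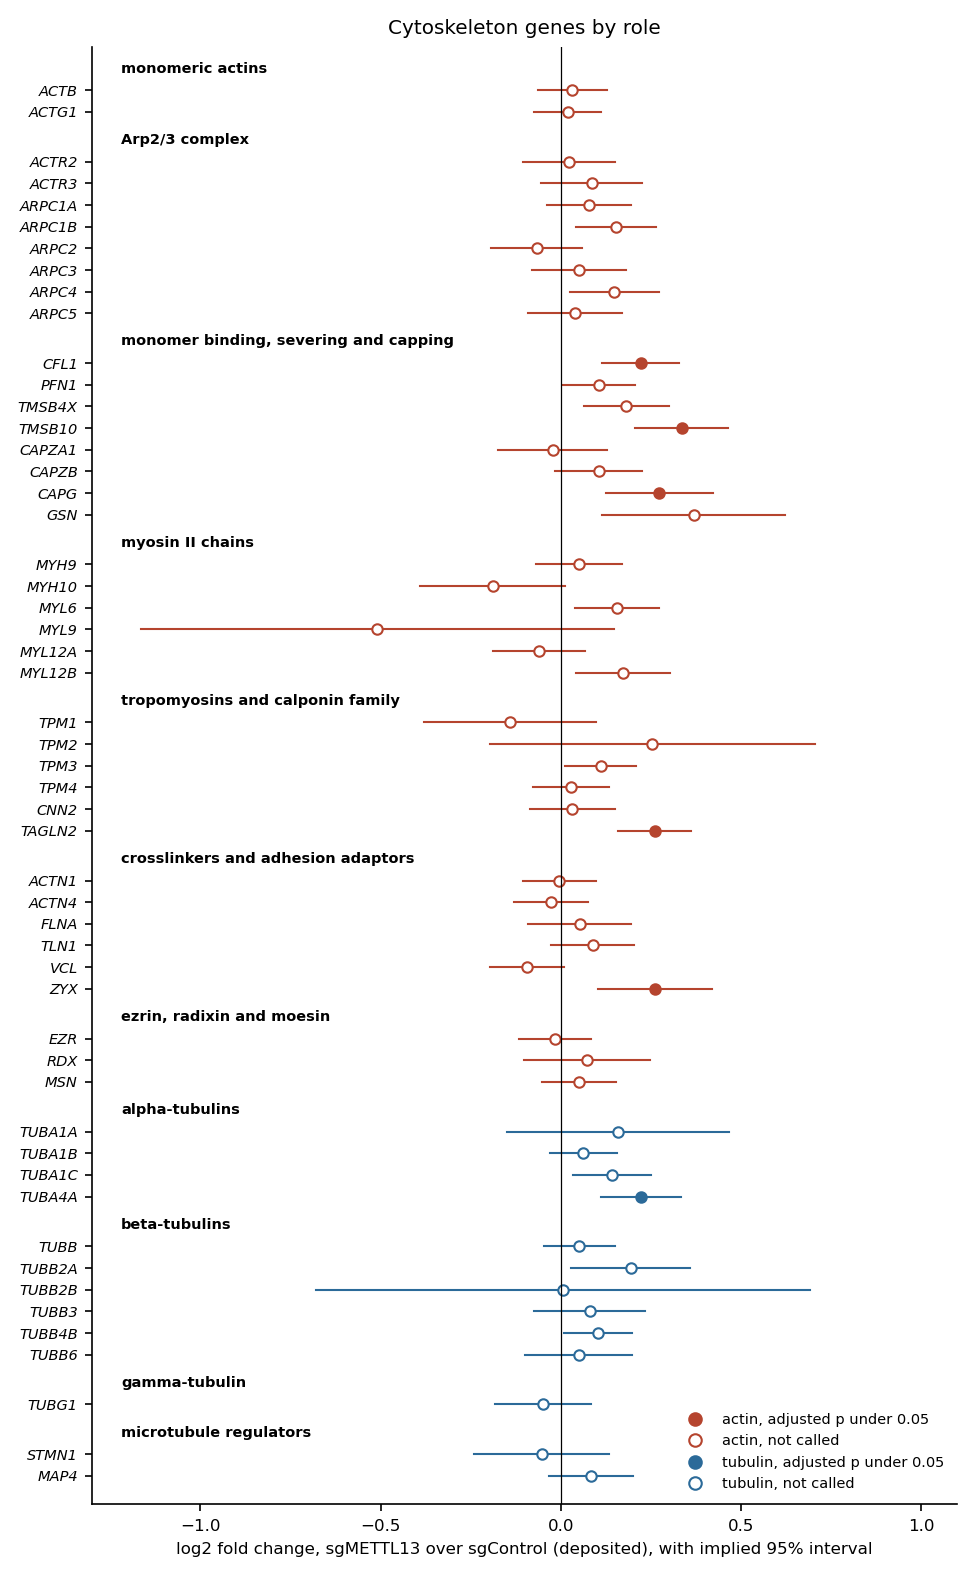
Deposited log2 fold change of sgMETTL13 over sgControl (x axis) with its implied 95% interval for each of the 52 members, ordered by role, in red for actin and blue for tubulin members. The 6 filled points (CFL1, TMSB10, CAPG, TAGLN2, ZYX and TUBA4A) are the called members and lie between 0.22 and 0.34, and the widest interval to the left belongs to MYL9.

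No myosin II chain passed the test, and 2 of 6 had an unadjusted p under 0.05, both higher. Of abundant genes 13.7% were higher at that threshold. MYH9, the main non-muscle heavy chain, averaged 900 and 886 TPM with a log2 fold change of 0.05 per the authors' deposited table, and made up 99.1% of the TPM of the MYH9 and MYH10 pair in sgControl. MYH10 was at 8.55 and 7.11 TPM and -0.19 (interval -0.39 to 0.01) per the authors' deposited table. Light chain values lay on both sides of 0, and none passed the test. The essential chain MYL6 (1194 and 1266 TPM) and the regulatory chain MYL12B (473 and 508 TPM) had values of 0.16 and 0.17 with adjusted p of 0.14 each per the authors' deposited table. Regulatory chains MYL12A (-0.06) and MYL9 (-0.51) lay below 0 per the authors' deposited table. MYL9 averaged 41.3 and 28.0 reads per the authors' deposited table, and its interval from -1.16 to 0.15 leaves a fall of more than 2-fold and a small rise alike within the error at this depth.

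Among tropomyosins and the calponin family, TAGLN2 rose. This gene of transgelin-2, an actin-binding protein, averaged 831 TPM and 8611 reads in sgControl and 945 TPM and 9958 reads in sgMETTL13 per the authors' deposited table. Its log2 fold change was 0.26 with an adjusted p of 5.74e-05 per the authors' deposited table (implied standard error 0.052), and 0.17 with an adjusted p of 0.032 after trend removal. TAGLN2 (Entrez gene 8407) lies on the minus strand of chromosome 1 from 159918107 to 159925732. Tropomyosins coat the filament and set which proteins reach it. TPM4 (643 and 622 TPM) and TPM3 (498 and 511 TPM) were the main tropomyosin genes per the authors' deposited table, with log2 fold changes of 0.03 and 0.11, and TPM3 had an adjusted p of 0.292. TPM1 (28.4 and 25.1 TPM) and TPM2 (7.65 and 8.59 TPM) had values of -0.14 and 0.25 per the authors' deposited table, with intervals from -0.38 to 0.10 and from -0.20 to 0.71. Calponin CNN2 was at 626 and 608 TPM and 0.03 per the authors' deposited table.

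ZYX was the 1 crosslinker or adhesion adaptor of 6 to pass the test. Zyxin marks mature focal adhesions and stress fibres. ZYX averaged 643 TPM and 11098 reads in sgControl and 731 TPM and 12846 reads in sgMETTL13 per the authors' deposited table, a log2 fold change of 0.26 with an adjusted p of 0.037 (implied standard error 0.081). It (Entrez gene 7791) spans 143381080 to 143391111 of chromosome 7, plus strand, and at 64.9% its transcript has the highest GC content of any member. After trend removal its value was 0.15 (adjusted p = 0.556), and on the log2 ratio of average TPM it was 0.19 (adjusted p = 0.127), neither of them called. The TPM ratio was not centred, and its median over abundant genes was -0.06. The alpha-actinins ACTN4 (1043 and 981 TPM) and ACTN1 (419 and 397 TPM) had values of -0.03 and -0.004 per the authors' deposited table. Filamin FLNA (0.05), talin TLN1 (0.09) and vinculin VCL (-0.09) were also not called per the authors' deposited table. VCL was called lower on the log2 ratio of average TPM, at -0.17 with an adjusted p of 0.013. On that scale 8.47% of all genes were called lower. VCL was not called after centring on the median of all genes (-0.09, adjusted p = 0.475) or after trend removal (-0.07, adjusted p = 0.818). Ezrin, radixin and moesin, which link actin to the membrane, had values of -0.02, 0.07 and 0.05 per the authors' deposited table. Their log2 ratios of average TPM were -0.09, 0.0005 and -0.02, beside the median of -0.06 over abundant genes.

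**Figure D4:**
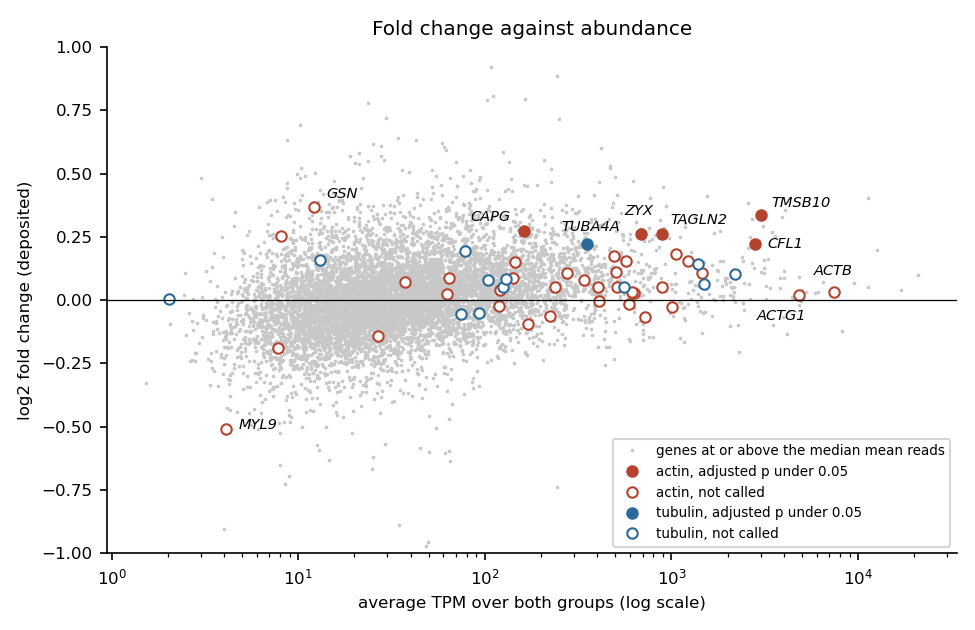
Deposited log2 fold change (y axis, drawn from -1 to 1, so that larger changes of other genes fall outside) against average TPM over both groups (x axis, log scale), with abundant genes in grey, actin members in red and tubulin members in blue. The filled points are the 6 called members; ACTB and ACTG1, at the right, lie at 0.03 and 0.02.

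Of the tubulin genes TUBA4A rose and the others did not pass the test. TUBA4A, an alpha-tubulin gene that is unusual in that its protein lacks the terminal tyrosine as made, averaged 330 TPM and 3468 reads in sgControl and 372 TPM and 3904 reads in sgMETTL13 per the authors' deposited table. Its log2 fold change was 0.22 with an adjusted p of 0.0041 per the authors' deposited table (implied standard error 0.056). After trend removal it was 0.15 (adjusted p = 0.175) and no longer called. TUBA4A (Entrez gene 7277) lies on the minus strand of chromosome 2 from 219249711 to 219278170. It went from 10.3% to 11.3% of alpha-tubulin TPM. The main alpha-tubulin genes TUBA1B (1500 and 1488 TPM) and TUBA1C (1349 and 1414 TPM) had values of 0.06 and 0.14 per the authors' deposited table, and TUBA1C had an adjusted p of 0.15. TUBA1A was at 12.8 and 13.5 TPM and 0.16 per the authors' deposited table (interval -0.15 to 0.47).

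Beta-tubulin RNA was mostly TUBB4B. Per the authors' deposited table TUBB4B averaged 2169 and 2215 TPM, or 71.4% and 71.9% of beta-tubulin TPM, and TUBB averaged 562 and 554 TPM, or 18.5% and 18.0%. Their log2 fold changes were 0.10 (adjusted p = 0.31) and 0.05 per the authors' deposited table. TUBB2A (75.3 and 81.7 TPM), TUBB3 (104 and 105 TPM), which is known as the neuronal isotype, and TUBB6 (126 and 125 TPM) had values of 0.19 (adjusted p = 0.246), 0.08 and 0.05 per the authors' deposited table, and none passed the test. TUBB2B averaged 31.4 and 30.2 reads per the authors' deposited table, with an interval from -0.68 to 0.69. All 10 alpha- and beta-tubulin genes had a deposited log2 fold change above 0, against 53.3% of abundant genes. A log2 ratio of average TPM above 0 was found in 6 of 10, against 31.9% of abundant genes. After trend removal TUBB2B, TUBB3 and TUBB6 lay below 0 and the others above it. Several of these genes are near-copies of each other, as given below, so they are not independent. Summed alpha- and beta-tubulin TPM went from 6230 to 6370 per the authors' deposited table, and alpha over beta from 1.05 to 1.07. The gamma-tubulin gene TUBG1 was at 96.8 and 88.7 TPM and -0.05 per the authors' deposited table. Stathmin STMN1 (77.6 and 71.4 TPM, -0.05) and the stabilising MAP4 (130 and 130.1 TPM, 0.08) did not pass the test per the authors' deposited table.

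Some tubulin genes are near-copies of each other, which limits how far their reads can be told apart. Of the 13 tubulin members 8 have read averages that are no sum of whole reads, and of the 39 actin members 5. In 50-base words of the longest coding transcript, 56.6% of TUBA1B, 40.9% of TUBA1A and 25.1% of TUBA1C are shared with other genes, and 60.3% of TUBB2A and 47.3% of TUBB2B are shared too. All shared words of TUBB2A occur in TUBB2B. TUBG1 shares 29.1%, with TUBG2, while TUBB4B and TUBB3 share 9.89% and 7.88%, TUBB6 and TUBB 0.993% and 0.561%, and TUBA4A none. The 6 called members share 0% of these words with other genes of the table, and their read averages are all sums of whole reads. Genes and pseudogenes outside the table were not searched for shared words.

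The called members had a higher median GC content and a shorter median transcript than the members not called. Their transcripts range from 53.8% to 64.9% GC (median 57.8%) and from 496 to 2499 bases (median 1741), against medians of 52.7% and 2419 bases in the 46 members not called. Across the 52 members the log2 fold change had a Spearman correlation of 0.34 with GC content and -0.34 with length, and across the 8289 abundant genes with an annotated transcript 0.36 and -0.27. These are descriptions across genes, which share the libraries. After trend removal the 17 members with an unadjusted p under 0.05 all had a value above 0, and 16 of them, TPM3 being the exception, lay closer to 0 than before. These 17 were picked by their deposited values, all above 0, so that their sign is no independent check. Other members did change sign, among them ACTB, TUBB3 and TUBB6.

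**Figure D5:**
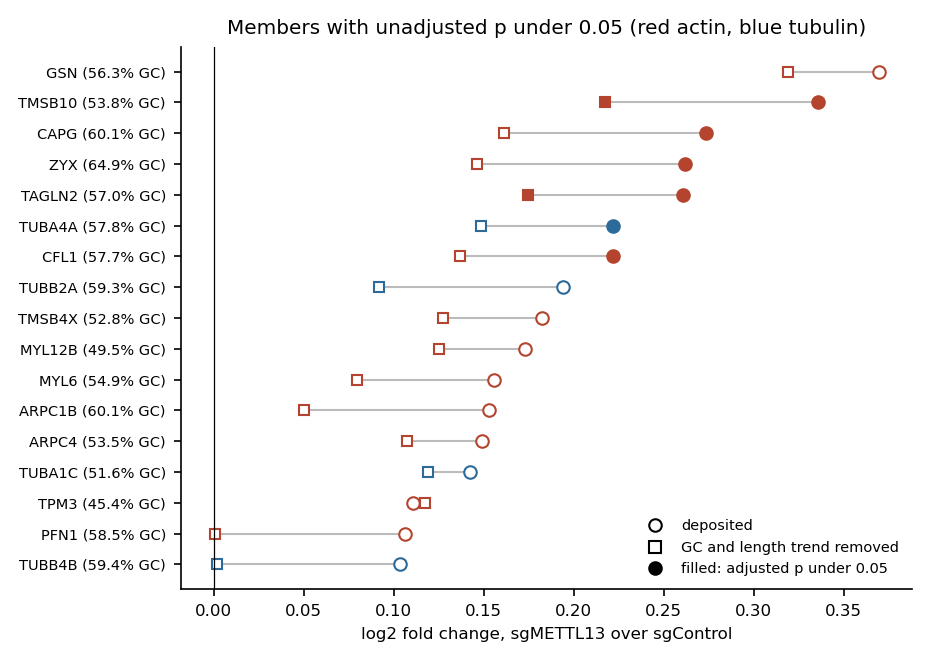
Deposited log2 fold change (circles) and the value after trend removal (squares), x axis, of the 17 members with an unadjusted p under 0.05, with the GC content of the transcript beside each name; filled symbols are calls. TMSB10 and TAGLN2 have 2 filled symbols, and PFN1 and TUBB4B move to 0.0006 and 0.0016.

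In total 17 members were higher and none lower at an unadjusted p under 0.05 per the authors' deposited table, against 7.65% of all genes higher and 4.8% lower, and 13.7% of abundant genes higher and 7.27% lower. The 11 of these that were not called averaged between 223 reads (GSN in sgControl) and 26438 reads (TUBB4B in sgMETTL13) per the authors' deposited table, with implied standard errors from 0.048 (TUBB4B) to 0.130 (GSN). Of the 46 members not called 42 had an interval within a 1.5-fold change in both directions, and 4 did not, namely GSN, MYL9, TPM2 and TUBB2B. The median implied standard error of the members was 0.062, against 0.089 over abundant genes.

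Calls among other genes of these pathways differed between the lists. Their counts stand against 2.73% of all genes higher and 1.08% lower, and 5.21% and 1.83% of abundant genes. Of all calls 71.7% were higher. Of 40 other actin-binding genes 3 were higher and 1 lower per the authors' deposited table, with a median log2 fold change of 0.01. At an unadjusted p under 0.05 there were 7 higher and 6 lower of the 40. Shares at that threshold were 7.65% of all genes higher and 4.8% lower, and 13.7% and 7.27% of abundant genes. After trend removal 1 was called higher and 2 lower, against 1.65% of all genes higher and 1.03% lower. The filament elongation factor VASP (703 and 814 TPM, 0.29), the bundling protein FSCN1 (1693 and 1945 TPM, 0.27) and the adhesion adaptor PXN (516 and 586 TPM, 0.26) were higher, with an adjusted p of at most 0.006 per the authors' deposited table. MYH14, the third non-muscle myosin II heavy chain gene, was lower, at 22.1 and 16.1 TPM and -0.38 with an adjusted p of 0.0043 per the authors' deposited table. After trend removal VASP (0.20, adjusted p = 0.027) and MYH14 (-0.45, adjusted p = 0.00044) kept the call, FSCN1 (0.16) and PXN (0.21) lost it, and FLNC (-0.57) was called lower.

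Of 10 genes of the SRF and MRTF list 3 were higher and none lower per the authors' deposited table. Of all genes 2.73% and of abundant genes 5.21% were higher. This list, like the others, was chosen with earlier results of these data known, so its share is no independent check. All 3 genes stayed called after trend removal, against 1.65% of all genes higher. The 3 called genes were JUNB (0.47), EGR1 (0.59) and the LIM protein gene FHL1 (0.43), of which JUNB and EGR1 are also immediate-early genes of ERK signalling. SRF itself (0.05), MRTFA (0.09) and MRTFB (-0.06) did not pass the test per the authors' deposited table, nor did CCN1 (0.05) and CCN2 (0.10). FOS (0.42) and FHL2 (0.19) were not called either, with a deposited unadjusted p of 0.010 and 0.014. At an unadjusted p under 0.05 there were 5 of the 10 higher and 0 lower, against 7.65% of all and 13.7% of abundant genes higher. None of the 5 members with a CArG box shown above, ACTG1, TPM4, CNN2, ACTN1 and FLNA, was called, and their log2 fold changes lay between -0.004 and 0.05 per the authors' deposited table. ACTB, ARPC1B and MYL9 had no window to search, and whether SRF acts on any member was not tested.

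On the microtubule side, of 27 microtubule-associated and tubulin-modifying genes none was lower and 1 higher per the authors' deposited table, MAP1S (35.7 and 43.1 TPM, 0.35, adjusted p = 0.0047). MAP1S lost the call after trend removal (0.24, adjusted p = 0.168). Of 23 genes for tubulin folding and the gamma-tubulin ring 0 were called (0 higher and 2 lower at an unadjusted p under 0.05), with a median of -0.01 and the smallest adjusted p, 0.126, at the folding cofactor TBCA (-0.26) per the authors' deposited table. TTC5, which recognises nascent tubulin when tubulin mRNA is degraded, was at 7.16 and 6.43 TPM and -0.08 (interval -0.48 to 0.32) per the authors' deposited table. Of the 7 other measured tubulin genes 0 were called (1 higher at an unadjusted p under 0.05), and 4 averaged below 1 TPM in sgControl per the authors' deposited table. At that unadjusted threshold 7.65% of all genes were higher and 4.8% lower.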

How the data were processed

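RNA was measured in 6 libraries, grouped by guide as their titles give it (3 sgControl, 3 sgMETTL13). The submitters' processing notes name RSEM 1.2.12, Bowtie2 2.2.5, HISAT2 2.0.4 and DESeq2 with hg38 and GRCh38.p12 (roles not given in the sources used here). Per the file headers the authors deposited average TPM, average read count (estimated counts, from their fractions) and a log2 ratio with a p-value and q-value (called adjusted p) from a test not given in the sources used here. FPKM was not used. Library depth is unknown. A read average counts as a sum of whole reads where 3 times its value is whole within 0.005.

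No count model was fitted, because the table holds group averages; the design named one only for counts per library. Implied standard errors are the size of the log2 fold change over the normal quantile of p. Calls have an adjusted p under 0.05 over 16617 genes. The trend in GC content and log2 length (splines with df 4, weights from the implied standard errors; 16211 genes) used the longest coding transcript of GENCODE 29, matched by Entrez ID. Members and lists were chosen with earlier results of these data known. All members are described by role, with full values for the called, and with TPM and fold change for the most abundant and those with unadjusted p under 0.05; up to 4 called genes were named per list, with others chosen after their values were seen. The result of 1 pathway list is not reported here. The implied standard errors, the adjustment of p and the trend removal were tested on simulated data, with a simulated trend in GC content alone. The other steps were not tested in this way. Software was matplotlib 3.10.9, patsy 1.0.2, scipy 1.17.1, pandas 2.3.3, numpy 2.4.6 and Python 3.11.15.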

Additional observations from a re-analysis of the deposited data

How the results depend on the processing

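No paired analysis was possible because the table holds 1 average per group and no column per replicate; for the same reason no replicate could be left out and no other count normalization was run. Of the 52 members 6 were called, 5 actin and 1 tubulin. Bonferroni adjustment left 2, 2 and 0, and removal of the trend in GC content and length, which also centres the fold changes, left 2, 2 and 0. At an adjusted p under 0.01 there were 3 actin calls (4 members in all). On the log2 ratio of average TPM with the implied standard error, added after seeing the data, 4 members were called, 3 higher and 1 lower (VCL), of which 3 were actin genes; CFL1 (adjusted p = 0.053), CAPG and ZYX lost the call. On that scale, which was not centred, 37.8% of all calls were higher, against 71.7% on the deposited scale and 61.6% with the trend removed. An adjusted p under 0.1, or adjustment over abundant genes, gave 8 calls, all higher; recomputed Benjamini-Hochberg adjustment and centring gave 6. The median log2 fold change on the TPM ratio was -0.0051 for the cytoskeleton at either pseudocount (0.1 or 1), -0.021 for actin and 0.0031 for tubulin, and that of tubulin was 0.0091 with the trend removed, a setting added for medians after seeing the data; on the log2 ratio of average reads the medians were 0.016, 0.00076 and 0.029. The ratio of summed TPM was 1.05 for actin and 1.03 for tubulin without the 2 most abundant members, and that of summed reads 1.01 and 1.03. None of the 17 members with an unadjusted p under 0.05 changed sign on the TPM ratio, after centring or after trend removal. As these were picked by their deposited values, this is no independent check, and other members, such as ACTB, changed sign after trend removal. Depth limits MYL9, TUBB2B and TPM2, whose implied standard errors are 0.335, 0.350 and 0.230.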
